A study of Mus musculus with 19 samples.

Results

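The genes of fatty acid uptake examined here were 10 of the 24054 gene symbols in the liver RNA-seq table, namely Cd36, Pparg, Slc27a1, Slc27a2, Slc27a4, Fabp1, Fabp2, Fabp4, Fabp5 and Lpl. They were chosen by symbol, and Cd36 stood at their head because its difference between the groups was already known from this table. The values that chose them are therefore given as a description, and the counts of how many passed the all-gene test stand beside their background with nothing read from them. The study asked how loss of RALY, a heterogeneous nuclear ribonucleoprotein, changes the liver transcriptome. Male C57BL/6 mice (the sex the methods give unless otherwise specified) carrying floxed Raly alleles (Raly flox/flox) on chow diet received an adeno-associated virus, and livers were taken 4 weeks later. AAV8.TBG.Cre gave the L-RalyKO group (3 mice) and AAV8.TBG.GFP the control group (3 mice), which the labels call wild type although these mice carry the floxed alleles and a virus too. The TBG promoter is active in hepatocytes, so Raly is kept in other cells of the liver, and whole liver RNA was sequenced. Fewer cells of a type and less RNA per cell cannot be told apart in such samples. The age of the mice is not given in the sources used here.

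Long-chain fatty acids reach the hepatocyte from the blood, bound to albumin or released from lipoproteins. CD36 is a membrane glycoprotein that binds fatty acids and oxidized lipoproteins and helps fatty acids into the cell. The fatty acid transport proteins of the SLC27A family couple uptake to activation by coenzyme A, fatty acid-binding proteins carry the acids through the cytosol, and lipoprotein lipase frees them from triglyceride-rich lipoproteins. PPARG is a nuclear receptor that binds DNA with RXR. It drives fat storage genes in adipocytes, and in mouse liver, where it is normally scarce, it is known to rise in fatty liver and to act on Cd36.

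Values are read counts per gene scaled to the effective size of each library, in the manner of CPM, and are not divided by gene length. The 3 control libraries held between 28302983 and 37132274 reads and the 3 L-RalyKO libraries between 34660211 and 38052705. Raly, the targeted gene, had values from 6.34 to 7.39 in L-RalyKO and from 46.8 to 50.1 in control liver. All 7 hepatocyte markers were detected in every liver, with a summed value from 94082 to 95005 in L-RalyKO and from 83725 to 93114 in control liver. Of the control libraries, that of control mouse 1 stood apart from the other two (chi-square per degree of freedom of 71.1 and 84.3 against them, and of 18.2 between the other two), and it alone held reads of Lep and Retn. The difference of each of the 10 genes is therefore given with and without control mouse 1. Xist was at 0.378 or less and Ddx3y at 75.2 or more in all 6 livers. Eif2s3y, another Y-linked gene, was lower in L-RalyKO liver (log2 difference −0.22, limma adjusted p = 0.0359, 0.0253 to 0.125 under the alternatives), and its adjusted p was over 0.05 whichever mouse was left out.

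The promoters of Cd36 and Pparg, the pair of members that were lower in L-RalyKO liver without overlap, are shown for the 250 bases before each RefSeq transcript start (GRCm38.p6, 5′ to 3′ on the strand of the gene). Capitals mark AGGTCA, the half-site of nuclear receptors such as PPARG with RXR, and CCAAT, the box bound by NFY, on either strand.
Cd36, chr5:17835897-17836146, - strand: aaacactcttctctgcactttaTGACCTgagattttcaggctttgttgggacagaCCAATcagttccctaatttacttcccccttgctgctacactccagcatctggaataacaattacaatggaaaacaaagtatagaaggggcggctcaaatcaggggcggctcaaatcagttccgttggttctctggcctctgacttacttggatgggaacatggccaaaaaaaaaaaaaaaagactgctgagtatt
Pparg, the first start, chr6:115360894-115361143, + strand: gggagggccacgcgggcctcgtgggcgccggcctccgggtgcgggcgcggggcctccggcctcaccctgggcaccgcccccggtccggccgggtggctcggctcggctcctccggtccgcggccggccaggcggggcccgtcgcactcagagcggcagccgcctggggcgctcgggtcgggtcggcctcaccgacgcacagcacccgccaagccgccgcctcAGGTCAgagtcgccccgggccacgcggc
Pparg, the second start, chr6:115362099-115362348, + strand: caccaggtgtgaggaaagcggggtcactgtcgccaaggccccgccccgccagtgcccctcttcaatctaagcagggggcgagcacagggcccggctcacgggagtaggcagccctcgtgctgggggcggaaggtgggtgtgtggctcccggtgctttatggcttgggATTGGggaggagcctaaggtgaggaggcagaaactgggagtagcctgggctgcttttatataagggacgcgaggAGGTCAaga
Pparg, the third start, chr6:115421816-115422065, + strand: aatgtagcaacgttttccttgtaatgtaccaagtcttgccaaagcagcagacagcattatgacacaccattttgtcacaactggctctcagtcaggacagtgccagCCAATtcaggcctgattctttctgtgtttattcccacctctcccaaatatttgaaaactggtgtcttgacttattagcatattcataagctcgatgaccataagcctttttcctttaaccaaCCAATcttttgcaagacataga
Of the 10 genes, 7 had entries in that table, with 11 windows in all. Lpl, Fabp4 and Fabp5 had no entry. Cd36 had 1 start there, though GENCODE vM1 gives it 4 coding transcripts, and any other start of Cd36 was not searched. The Cd36 window held TGACCT, the half-site on the other strand, from 228 to 223 bases before the start, and CCAAT from 195 to 191 bases before it. The half-site was in 5 of the 11 windows and in 14.0% of all 32851 RefSeq windows of this length, and CCAAT was in 6 of the 11 windows and in 33.8% of all. The full direct repeat, 2 half-sites with 1 base of any kind between them, was in 0 of the 11 windows and in 0.0335% of all, and the STAT site TTCNNNGAA was in 0 of the 11 and in 7.02% of all. No motif searched overlapped another in the windows printed, and a match is a run of letters and not a measured binding site.

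Cd36 (ENSMUSG00000002944.8, chromosome 5 from 17287508 to 17394777 on the - strand of NCBIM37, with 4 coding transcripts in GENCODE vM1) had values of 153, 102 and 107 in control mice 1, 2 and 3. Its values were 31.5, 43.5 and 35.8 in L-RalyKO mice 1, 2 and 3. Every L-RalyKO liver lay below every control liver, and control mouse 1 was the highest of the 6. Control livers averaged 121 ± 28.4 and L-RalyKO livers 36.9 ± 6.12 (SD, n = 3 each), so that the control mean was 3.27 times the L-RalyKO mean. Between 1082 and 5150 reads stood behind each value. On the log2(value + 1) scale the difference was −1.67 with a standard error of 0.16. Without control mouse 1 the control mean was 104 ± 4.05 (SD, n = 2), or 2.83 times the L-RalyKO mean, and the log2 difference was −1.49 (standard error 0.12). The groups did not overlap with or without that mouse.

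Pparg (ENSMUSG00000000440.6, chromosome 6 from 115311239 to 115440419 on the + strand), the nuclear receptor gene, had its value given per gene and not per transcript. Whether transcripts from all 3 starts shown above were counted is not given in the sources used here. Control mice 1, 2 and 3 had values of 16.6, 11.6 and 12.2, and L-RalyKO mice 7.91, 8.85 and 7.03. As with Cd36, the groups did not overlap and control mouse 1 was the highest. The means were 13.4 ± 2.73 and 7.93 ± 0.912 (SD, n = 3 each), a ratio of control to L-RalyKO of 1.69. The log2 difference was −0.68 (standard error 0.13). Without control mouse 1 the ratio was 1.5 and the log2 difference −0.53 (standard error 0.10).

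Lpl (ENSMUSG00000015568.8, chromosome 8 from 71404390 to 71431347 on the + strand), which encodes lipoprotein lipase and in adult liver is normally low, differed the other way. Its values were 7.66, 13.5 and 15.6 in control mice 1, 2 and 3 and 22.1, 31.1 and 22.7 in L-RalyKO mice 1, 2 and 3. Control mouse 1, the highest liver for Cd36, was the lowest for Lpl. L-RalyKO livers averaged 25.3 ± 5.03 and control livers 12.3 ± 4.13 (SD, n = 3 each), a ratio of L-RalyKO to control of 2.06. The log2 difference was 1.02 (standard error 0.23), and it was 0.74 (standard error 0.15) without control mouse 1, when the ratio was 1.73. The groups did not overlap in either case.

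**Figure D1:**
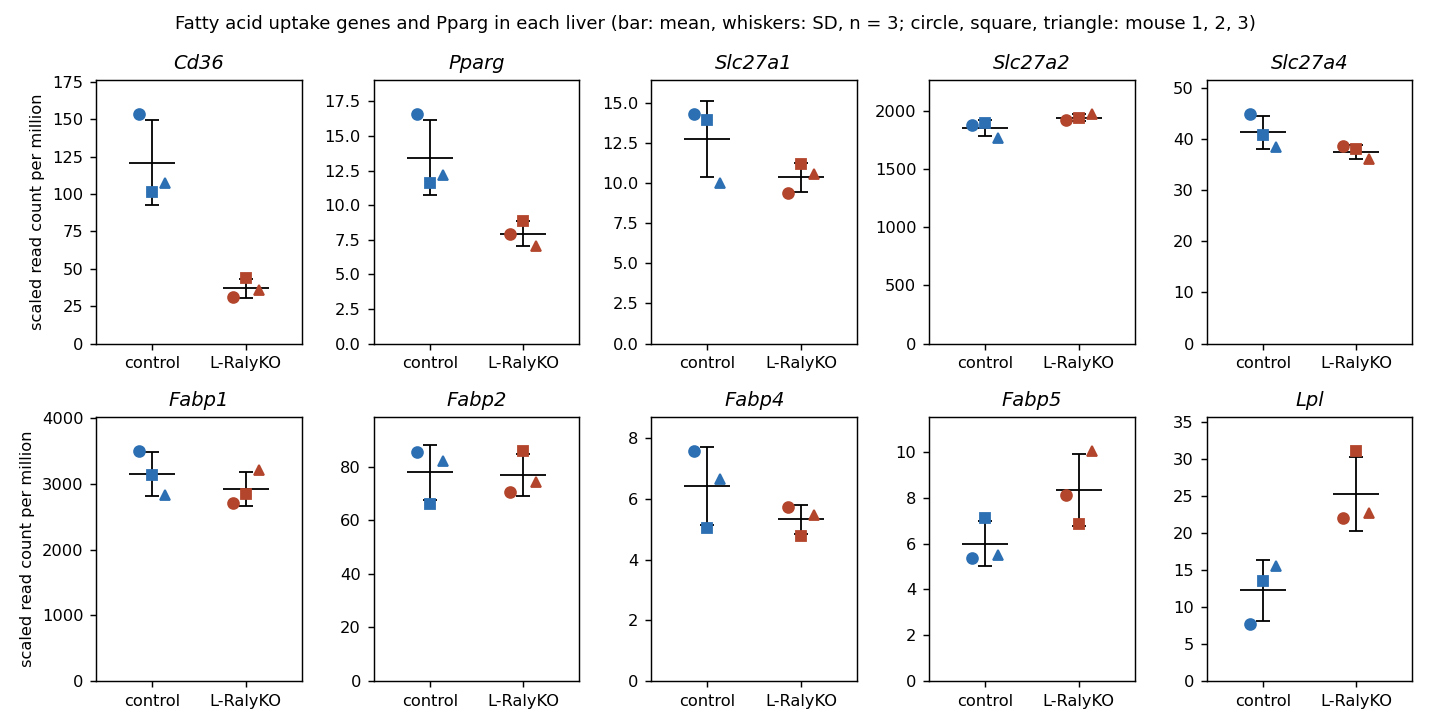
Value of each of the 10 genes (scaled read count, axis from 0) in the 3 control (blue) and 3 L-RalyKO (red) livers, with the mean and SD of each group and the mouse number as the marker shape. Cd36 and Pparg lay lower and Lpl higher in L-RalyKO liver without overlap, and control mouse 1 (circle) was the highest liver for Cd36 and Pparg and the lowest for Lpl.

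Slc27a2 (chromosome 2 from 126378143 to 126413979), whose product FATP2 is a very long-chain acyl-CoA synthetase and transporter of hepatocytes, had values of 1881, 1900 and 1772 in control and of 1919, 1939 and 1973 in L-RalyKO mice. The ranges did not overlap, but the means differed by a ratio of only 1.05, at 1944 ± 27.4 for L-RalyKO and 1851 ± 69.2 for control livers (SD, n = 3 each). The log2 difference was 0.07 (standard error 0.058), and 0.08 (standard error 0.064) without control mouse 1. Slc27a4 (chromosome 2 from 29658154 to 29673042), the gene of FATP4, had values of 44.9, 40.7 and 38.5 in control and of 38.5, 38.0 and 36 in L-RalyKO mice. Only L-RalyKO mouse 1 and control mouse 3 overlapped, by 0.045. Its log2 difference was −0.14 (standard error 0.066), and −0.08 (standard error 0.062) without control mouse 1. Slc27a1 (chromosome 8 from 74092826 to 74110607), the gene of FATP1, which is better known from muscle and adipose tissue, had values of 14.3, 14.0 and 10.0 in control and of 9.37, 11.2 and 10.6 in L-RalyKO mice. Control mouse 3 lay within the L-RalyKO range. The log2 difference was −0.26 (standard error 0.13), and −0.18 (standard error 0.14) without control mouse 1.

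Among the binding proteins, Fabp1 (chromosome 6 from 71149821 to 71155017), the main fatty acid-binding protein of liver, had values of 3495, 3136 and 2830 in control and of 2713, 2852 and 3215 in L-RalyKO mice. The groups overlapped, and the log2 difference of −0.11 (standard error 0.098) became −0.03 (standard error 0.094) without control mouse 1. Fabp2 (chromosome 3 from 122597990 to 122602424), named for the intestine but also present in liver, had values of 85.2, 66.1 and 82.2 in control and of 70.6, 85.6 and 74.2 in L-RalyKO mice. Its log2 difference was −0.02 (standard error 0.10), and its sign turned to 0.05 without control mouse 1. Of 6 markers of intestinal epithelium, Cdx1, Sis and Krt20 had no read in any liver, Cdx2 had 1 read in all, and Vil1 was at 0.263 or less. The summed value of the list, nearly all of it Lgals4, was between 18.5 and 24.5 in control and between 20.6 and 23.6 in L-RalyKO liver. Fabp4 (chromosome 3 from 10204347 to 10208576), a binding protein of adipocytes, macrophages and endothelium and a classical PPARG target, had values of 7.57, 5.05 and 6.68 in control and of 5.73, 4.79 and 5.47 in L-RalyKO mice. Its log2 difference was −0.22 (standard error 0.13), and −0.11 (standard error 0.13) without control mouse 1. Fabp5 (chromosome 3 from 10012548 to 10016607), found in epidermis, macrophages and other cells, had values of 5.36, 7.12 and 5.51 in control and of 8.12, 6.88 and 10.0 in L-RalyKO mice. L-RalyKO mouse 2 lay within the control range. The log2 difference was 0.41 (standard error 0.14), and 0.35 (standard error 0.16) without control mouse 1.

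All 10 genes passed the minimum mean value of 1, and the lowest, Fabp4, rested on 144 to 254 reads per liver. Over the whole table of 11580 tested genes 6.55% had an adjusted p under 0.05 (limma), and 3 of the 10 genes, Cd36, Pparg and Lpl, were among them. The groups did not overlap in 4 of the 10, and in 28.1% of all tested genes. Without control mouse 1 the same tally was 3 of 10, against 3.19% of all tested genes, with 4 of 10 not overlapping, against 36.3%. It was 1 of 10 (Cd36) without L-RalyKO mouse 1 and also without L-RalyKO mouse 3, and 4 of 10 (Slc27a1 added) without control mouse 3. It was 2 of 10 (Cd36 and Pparg, without Lpl) with edgeR, without L-RalyKO mouse 2 and without control mouse 2. Since this contrast chose the genes, nothing is read from these counts. The median log2 difference of the 10 genes was −0.12, and −0.05 without control mouse 1, where that of all tested genes was 0.004 and 0.005.

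**Figure D2:**
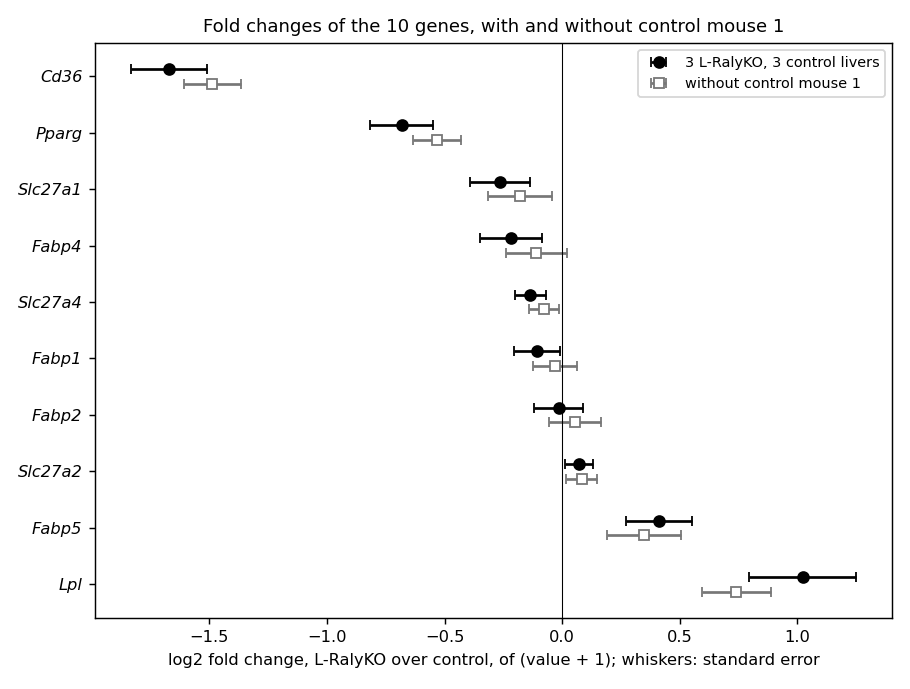
Log2 fold change (L-RalyKO over control, of value + 1) of the 10 genes with its standard error, for all 6 livers (black circles) and without control mouse 1 (open grey squares). Cd36 moved from −1.67 to −1.49, Pparg from −0.68 to −0.53 and Lpl from 1.02 to 0.74 when that mouse was left out, and the other 7 genes lay between −0.26 and 0.41.

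To compare levels between genes, values were divided by the length of the exons of coding transcripts in kilobases. Per kilobase, control liver had the order Fabp1 (5702 ± 602), Slc27a2 (616 ± 23.0), Fabp2 (80.7 ± 10.6) and Cd36 (30.8 ± 7.24), each apart from the next beyond its spread (SD, n = 3). Slc27a4 (10.2 ± 0.796) and Fabp4 (10.1 ± 2.01) did not differ beyond their spread in control liver. Neither did Pparg (6.77 ± 1.38) and Fabp5 (6.08 ± 0.985), and Slc27a1 (4.57 ± 0.85) and Lpl (2.98 ± 1.0) ended the order. The ranges of Fabp4 and Pparg and those of Slc27a1 and Lpl overlapped as well. In L-RalyKO liver Cd36 (9.40 ± 1.56 per kilobase) was at the level of Slc27a4 (9.25 ± 0.331), Fabp5 (8.45 ± 1.61) and Fabp4 (8.37 ± 0.765). Lpl (6.14 ± 1.22 per kilobase) there stood above Pparg (4.0 ± 0.46) and Slc27a1 (3.71 ± 0.328), which were below it in all 3 livers.

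Of the other genes of fatty acid uptake, binding and activation, 10 of 15 listed were tested. This list and those that follow were chosen with earlier results of these data known, so their counts are a description. Acsl4, an acyl-CoA synthetase that favours arachidonic acid, rose from values of 48.9, 50.0 and 57.4 in control to 73.0, 71.1 and 70.0 in L-RalyKO mice. Its log2 difference was 0.45 (standard error 0.066, limma adjusted p = 0.0072, 1.83e-06 to 0.0357 under the alternatives). It was the sole gene of the list to rise, where 3.36% of all tested genes did. Cav1, a caveolar coat protein that accompanies CD36 at the plasma membrane, fell from 4.83, 4.94 and 4.51 to 3.08, 1.74 and 3.16, and was the sole one to fall, where 3.19% of all tested genes did. Its log2 difference was −0.68 (standard error 0.16, limma adjusted p = 0.0411, 0.00348 to 0.116 under the alternatives). The adjusted p of Cav1 was 0.116, 0.0979 and 0.0651 without control mouse 1, 2 or 3 and 0.0623 without L-RalyKO mouse 1. The endothelial markers, among them Cdh5 and Pecam1, did not pass the test in any of 9 cases, and their summed value lay between 255 and 322 in L-RalyKO and between 292 and 300 in control liver. The other 8 did not pass the test. By values not divided by length, the highest of these was the lipid transfer protein gene Scp2 (log2 difference 0.09, limma adjusted p = 0.504). The synthetase gene Acsl1 came next on that scale (−0.08, limma adjusted p = 0.577). Fabp6 had no read in any liver.

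Of 14 genes around lipoprotein lipase, all tested, Vldlr, a receptor for triglyceride-rich lipoproteins, fell and none rose, where 3.19% of all tested genes fell and 3.36% rose. Its values were 3.79, 3.26 and 3.79 in control and 1.75, 2.35 and 1.58 in L-RalyKO mice. The log2 difference was −0.68 (standard error 0.12, limma adjusted p = 0.0155, 0.000802 to 0.0611 under the alternatives). The adjusted p was 0.0593 without control mouse 1 and 0.0611 without L-RalyKO mouse 1. The lipase inhibitor gene Angptl4 had a log2 difference of −0.10, and the lipase anchor Gpihbp1 and the maturation factor Lmf1 of −0.18 and −0.04, none of which passed the test. By values not divided by length, the highest gene of the list was Apoc1 (log2 difference 0.02, limma adjusted p = 0.925). The receptor gene Lrp1 came next on that scale (0.10, limma adjusted p = 0.468).

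Of 18 partners and coregulators of PPARG, all tested, Rxrg fell and Ppargc1b rose, next to 3.19% falling and 3.36% rising among all tested genes. Rxrg, the gene of an RXR better known from muscle and brain, went from 5.22, 4.42 and 4.81 in control to 2.97, 3.13 and 2.29 in L-RalyKO mice (log2 difference −0.62, standard error 0.11, limma adjusted p = 0.0162, 0.000992 to 0.063 under the alternatives). The adjusted p was 0.063 without control mouse 1. Ppargc1b, a coactivator of mitochondrial and lipogenic genes, went from 8.20, 10.1 and 7.14 to 13.4, 12.5 and 12.9 (log2 difference 0.57, standard error 0.11, limma adjusted p = 0.0204, 0.000314 to 0.0762 under the alternatives). The adjusted p was 0.0708 without control mouse 1 and 0.0762, 0.0535 and 0.059 without L-RalyKO mouse 1, 2 or 3. Ppara, the main PPAR of liver, had a log2 difference of 0.05 (adjusted p = 0.662) and Rxra, its usual partner, of 0.12 (adjusted p = 0.247, both limma).

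Of 16 listed genes that PPARG is known to activate, 13 were tested, and 4 fell and 1 rose, against 3.19% and 3.36% of all tested genes. This list was chosen with earlier results of these data known, so nothing is read from its counts or its median. The median log2 difference of the 13 was −0.49, and −0.29 without control mouse 1. Mogat1, a monoacylglycerol acyltransferase of triglyceride synthesis, fell from 5.04, 2.74 and 2.70 in control to 0.989, 0.667 and 0.579 in L-RalyKO mice (log2 difference −1.33, standard error 0.20, limma adjusted p = 0.00749, 7.08e-10 to 0.029 under the alternatives). The pseudocount of 1 makes its difference smaller, which was −2.06 with a pseudocount of 0.1, −2.23 with edgeR, −2.24 with DESeq2 and −2.19 with voom, and the control mean was 4.69 times the L-RalyKO mean. Plin4, a lipid droplet coat protein gene, fell from 130, 88.5 and 131 to 49.4, 65.0 and 64.4 (log2 difference −0.94, standard error 0.16, limma adjusted p = 0.012, 2.88e-10 to 0.0535 under the alternatives, the highest of them with edgeR). Gpd1, which supplies glycerol phosphate for triglycerides, fell from 698, 569 and 531 to 392, 418 and 381 (log2 difference −0.58, standard error 0.095, limma adjusted p = 0.011, 2.95e-08 to 0.0463 under the alternatives).

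Pck1, which besides its part in glyceroneogenesis is a hepatic gene of gluconeogenesis controlled by glucagon and insulin, rose from 2993, 2937 and 3625 in control to 5401, 5327 and 5616 in L-RalyKO mice (log2 difference 0.78, standard error 0.093, limma adjusted p = 0.00312, 1.06e-17 to 0.021 under the alternatives). The lipid droplet gene Plin2 had values of 727, 525 and 422 in control and of 390, 382 and 382 in L-RalyKO mice (log2 difference −0.50, limma adjusted p = 0.107, 0.017 to 0.22 under the alternatives, the lowest of them without control mouse 3). G0s2, which encodes an inhibitor of adipose triglyceride lipase, had values of 192, 116 and 89.0 in control and of 199, 193 and 171 in L-RalyKO mice. Its log2 difference was 0.57 (limma adjusted p = 0.18, 0.0103 to 0.474 under the alternatives), and it became 0.88 (adjusted p = 0.0103, limma) without control mouse 1, the only control liver within the L-RalyKO range. Without control mouse 1, 3 of the 13 fell and 2 rose, where 1.61% of all tested genes fell and 1.57% rose.

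**Figure D3:**
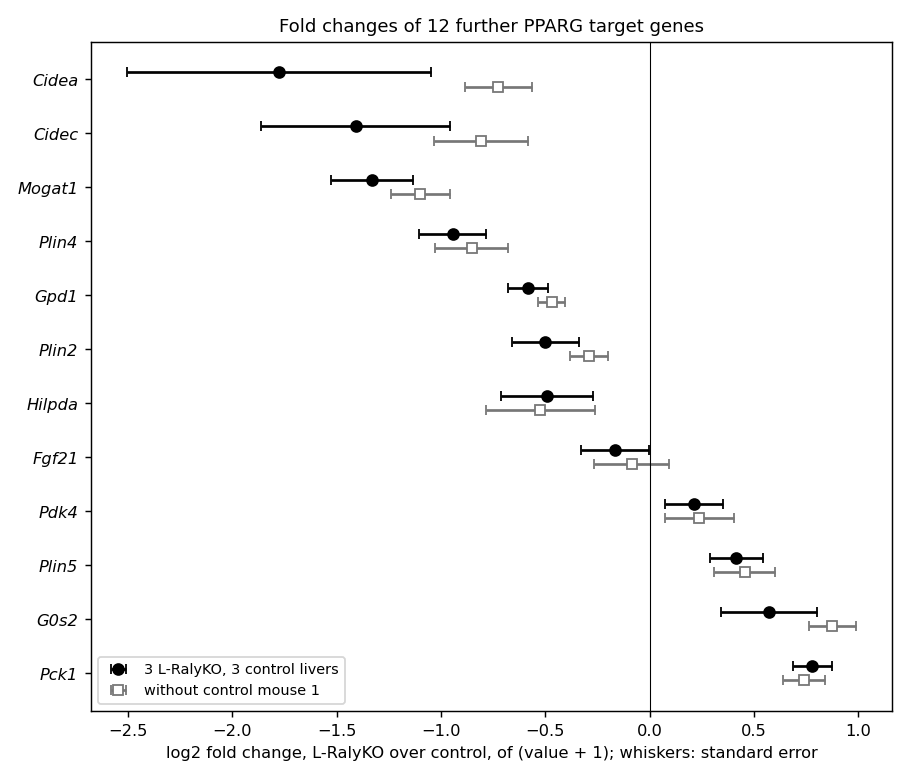
Log2 fold change (L-RalyKO over control, of value + 1) of 12 tested PPARG target genes outside the 10, with its standard error, for all 6 livers (black circles) and without control mouse 1 (open grey squares). Cidea and Cidec moved most when that mouse was left out, from −1.78 to −0.72 and from −1.41 to −0.81, and Mogat1, Plin4, Gpd1 and Pck1 went to −1.10, −0.85, −0.47 and 0.74.

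Cidea and Cidec, lipid droplet fusion proteins of adipocytes and of fatty liver, are PPARG targets and adipocyte markers at once. Cidec had values of 38.8, 7.54 and 14.1 in control mice 1, 2 and 3 and of 4.71, 6.30 and 5.58 in L-RalyKO mice. The groups did not overlap, but control mouse 1 lay far above the others, and the log2 difference of −1.41 (standard error 0.45) had a limma adjusted p of 0.105 (0.0254 to 0.244 under the alternatives, the lowest of them without control mouse 2). Cidea had values of 14.1, 0.526 and 0.892 in control and of 0, 0.087 and 0 in L-RalyKO mice, and its limma adjusted p was 0.192 (0.0518 to 0.339 under the alternatives). In reads, 521 stood in the control and 3 in the L-RalyKO group, a ratio of scaled levels of 187 (exact 95% interval 63.7 to 911, counting error only), and of 26.1 (8.41 to 131) without control mouse 1.

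Adipocytes express Cd36, Pparg and Fabp4 strongly, and the adipocyte markers are given beside these genes. Of 12 markers, 6 were too low to be tested. Adipoq, the gene of adiponectin, had 4, 0 and 1 reads in control mice 1, 2 and 3 and 2, 0 and 0 in L-RalyKO mice. In control mouse 1 there were also 5 reads of Retn, 7 of Lep, 2 of Plin1 and 3 of Adig, and in control mouse 2 there were 2 of Plin1 and 1 of Adig. None of these 4 genes had a read in control mouse 3 or in any L-RalyKO mouse, and Ucp1 had at most 1 read in any liver. In the same control mouse 1 there were 5150 reads of Cd36, 556 of Pparg, 254 of Fabp4, 1302 of Cidec and 473 of Cidea.

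Of the 6 markers that were tested, Cfd, the gene of complement factor D, fell from values of 12.6, 2.74 and 3.46 in control to 0.204, 1.10 and 0.132 in L-RalyKO mice (log2 difference −2.10, limma adjusted p = 0.0318, 0.0108 to 0.143 under the alternatives, the highest of them with edgeR). The difference of Cfd was likewise −3.52 with a pseudocount of 0.1 and between −3.96 and −3.72 with voom, edgeR and DESeq2. Its adjusted p was 0.101 and 0.0934 without L-RalyKO mouse 1 or 3. Car3, a carbonic anhydrase that hepatocytes also express, fell from 3729, 3279 and 2494 to 2087, 1782 and 1666 (log2 difference −0.77, limma adjusted p = 0.0189, 1.81e-08 to 0.0642 under the alternatives). Its adjusted p was 0.0528 and 0.0581 without control mouse 1 or 2, and 0.0642 and 0.0619 without L-RalyKO mouse 2 or 3. Adrb3, a beta-adrenergic receptor gene of adipocytes, rose from 3.04, 3.12 and 3.27 to 4.80, 5.37 and 6.60 (log2 difference 0.66, limma adjusted p = 0.012, 0.000266 to 0.0459 under the alternatives). Lipe, the gene of hormone-sensitive lipase, had a log2 difference of 0.02 (adjusted p = 0.967, limma). The summed value of the 12 markers, most of it Car3, was 3828, 3320 and 2534 in control and between 1702 and 2121 in L-RalyKO mice. The part of adipocyte RNA in the differences of Cd36, Pparg and Fabp4 was not tested.

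**Figure D4:**
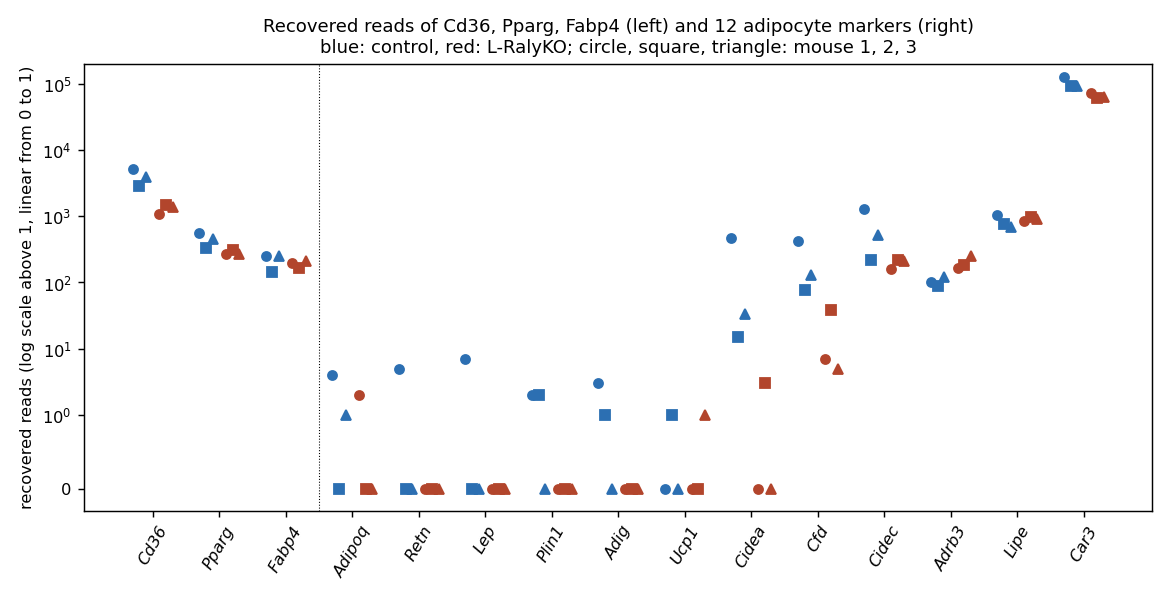
Recovered reads (log axis above 1, linear from 0 to 1) of Cd36, Pparg and Fabp4 (left of the dotted line) and of 12 adipocyte markers in control (blue) and L-RalyKO (red) livers, with the mouse number as the marker shape. Adipoq, Retn, Lep, Plin1, Adig and Ucp1 had at most 7 reads in any liver, and control mouse 1 (blue circle) was the highest liver for Cidea, Cfd and Cidec.

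Cd36, Lpl, Fabp4 and Fabp5 are also made by macrophages of the liver, and Cd36 and Fabp4 by its endothelium. None of 11 Kupffer cell and macrophage markers, 9 endothelial markers and 8 stellate cell and fibroblast markers passed the test (limma). The summed value of the macrophage markers was 225, 321 and 264 in control mice 1, 2 and 3 and between 224 and 289 in L-RalyKO mice. The part of these cells in the differences of Cd36 and Lpl was not tested. Of the hepatocyte markers, Hnf4a, a transcription factor of hepatocyte identity, rose (log2 difference 0.55, limma adjusted p = 0.0155, 1.37e-06 to 0.0617 under the alternatives), and the other 6 did not pass the test. The adjusted p of Hnf4a was 0.0509 and 0.051 without control mouse 1 or 2 and 0.0617 without L-RalyKO mouse 1.

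Of 8 other transcription factors that have been linked to Cd36, Nr1i2 rose and Stat5b fell, beside shares of 3.36% and 3.19% over all tested genes. Nr1i2 encodes PXR, a xenobiotic receptor of liver, and went from 97.2, 89.6 and 94.9 in control to 116, 119 and 119 in L-RalyKO mice (log2 difference 0.33, standard error 0.048, limma adjusted p = 0.00725, 2.09e-05 to 0.0295 under the alternatives). Stat5b, which carries the growth hormone signal, went from 57.5, 63.3 and 69.3 to 48.4, 53.1 and 46.4 (log2 difference −0.35, standard error 0.078, limma adjusted p = 0.0346, 0.00126 to 0.11 under the alternatives). Its adjusted p was 0.0824 and 0.0629 without control mouse 2 or 3, and 0.11 and 0.099 without L-RalyKO mouse 1 or 3. Nr1h3, the gene of LXR alpha, and Ahr had log2 differences of 0.04 and −0.10 and did not pass the test, and neither did Rora (0.22, adjusted p = 0.0878) and Nfe2l2 (−0.09, adjusted p = 0.525, both limma).

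**Figure D5:**
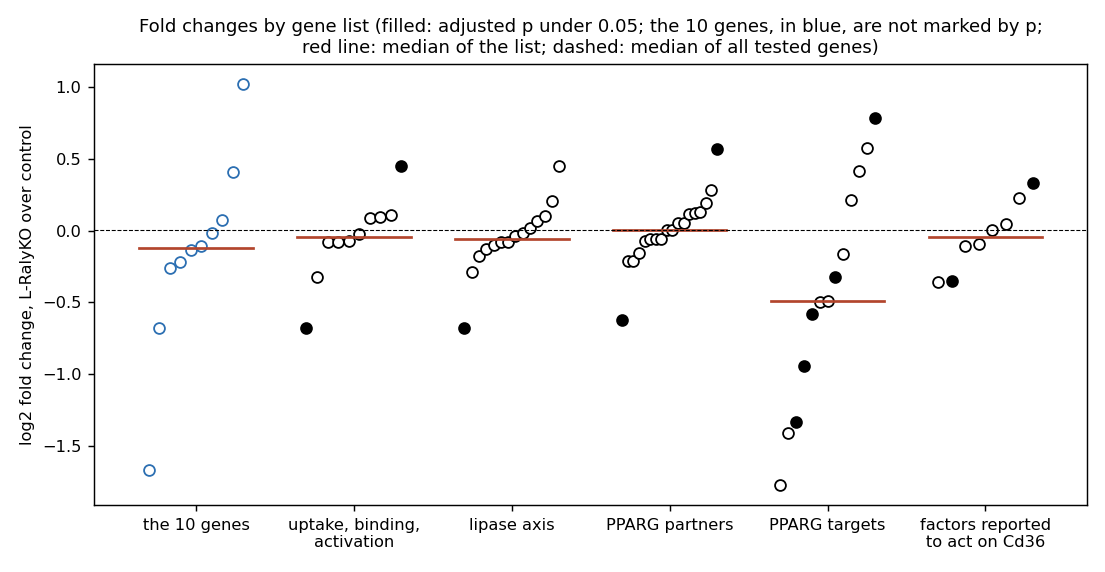
Log2 fold change (L-RalyKO over control, of value + 1) of the 10 genes (blue, all open, since this contrast chose them) and of the tested genes of 5 further lists (black, filled where the adjusted p was under 0.05), with the median of each list (red) and of all tested genes (dashed). The PPARG targets had a median of −0.49 with 4 falls and 1 rise, and the medians of the other 4 further lists lay between −0.06 and 0.01. The further lists too were chosen with earlier results of these data known, so the filled points are a description.

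The genes whose profile over the 6 livers was most like that of Cd36 were sought among 11570 other tested genes, by the root mean square difference of log2(value + 1) about the mean of each gene. Serpinb1a, an inhibitor of neutrophil proteases, was the closest (difference 0.0759), with values of 10.4, 6.42 and 6.73 in control and of 1.63, 2.35 and 2.0 in L-RalyKO mice. Clstn3 (0.178), Gm13251 (0.200), the galectin gene Lgals1 (0.22) and 2610305D13Rik (0.234) followed. The added 1 shrinks the differences of low genes such as 2610305D13Rik. Its values were 6.38, 4.28 and 4.51 in control and 1.02, 0.609 and 0.684 in L-RalyKO mice. In Serpinb1a, Clstn3 and Lgals1, as in Cd36, control mouse 1 was the highest liver and L-RalyKO mouse 2 the highest of its group. The genes most like Pparg were Tlr5 (0.0755), Uck1 (0.0815), Rps6ka1 (0.0889), Gpd1 (0.0904) and Tubb2a (0.0923). Gpd1, a glycerol phosphate dehydrogenase gene, was also on the list of PPARG targets.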

How the data were processed

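Processed RNA-seq values of 6 livers were analysed, and the ATAC-seq and ChIP-seq samples were not used here. Each column was assigned to a mouse through its virus and replicate number. Per the methods, stranded libraries were aligned with TopHat to mm9 and quantified with Cufflinks, and the submitters' processing notes name Cufflinks 2.0.2, Cuffdiff, Bowtie2, HOMER and MACS2 for the series. How the deposited values were made is not given in the sources used here. What the authors deposited is a signal per gene, namely its read count divided by the effective size of the library. In each column 100% of values were whole multiples of the smallest one (within 0.01 read), so reads were recovered, and the factors in the file were those of edgeR's TMM method. No gene length enters the values.

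L-RalyKO and control livers were compared with limma 3.58.1 (R 4.3.3) with a mean-variance trend. The scale was log2(value + 1), and the 11580 genes whose mean value reached 1 were tested. P-values were adjusted over all of them by the Benjamini-Hochberg method, with a threshold of 0.05. Fold changes on this scale understate those of low genes. Run on those reads as an alternative, edgeR (quasi-likelihood) called 783 genes. Overlap means overlap of the ranges of the groups. A value from 3 reads was between 0.0789 and 0.105. The number of mice, 3 per group, limits precision, and for genes with few reads depth does so as well. All libraries of a group differed by more than sampling noise.

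The 10 genes and all lists were chosen with earlier results of these data known. Named were the 10 genes, every listed gene at adjusted p under 0.05, all adipocyte markers, and the 5 genes most like Cd36 or Pparg. The 2 others of each list with the highest mean value, not divided by gene length, were named too. The endothelial markers, Angptl4, Gpihbp1, Lmf1, Nr1h3, Ahr, Hnf4a and the sex-linked genes were named in addition after their values were seen. The results of 2 listed genes are not reported here. Angptl8 and Adgre1 were found under older symbols. The counting of reads that paralogs share is not given in the sources used here. Coordinates are of NCBIM37 (GENCODE vM1) except for promoters, which are RefSeq sequences on GRCm38.p6. Methods were tested on simulated data. Alternatives were DESeq2 1.42.0, edgeR 4.0.16, limma voom, total count and upper-quartile scaling, a pseudocount of 0.1, other filters on low values, a replicate block and leaving out each mouse.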

Additional observations from a re-analysis of the deposited data

How the results depend on the processing

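The 758 genes at adjusted p under 0.05 (389 higher, 369 lower) became 484 (254 higher, 230 lower) when all genes with at least 1 read were tested. Total count scaling gave 324 higher and 469 lower. With 1 mouse left out the total lay between 332 and 813, with 168 to 454 genes higher and 164 to 359 lower. With all genes with at least 1 read, 1 of the 10 genes of fatty acid uptake was called (Cd36), 1 of the other uptake genes, 1 PPARG partner and 1 factor linked to Cd36. With a minimum mean value of 5, which drops low genes, 1 other uptake gene, 0 lipase genes and 1 PPARG partner were called. Leaving out each mouse gave from 1 to 4 of the 10, from 1 to 2 other uptake genes, from 0 to 2 lipase genes, from 0 to 2 PPARG partners and from 1 to 2 of the linked factors. The labels do not say whether same-numbered mice were paired, and the main fit did not pair them. The deviations of same-numbered mice correlated at 0.0664, −0.0238 and 0.0196. The replicate block gave 704 genes and 1 other uptake gene (Cav1 lost), and 2 of 3 L-RalyKO livers correlated best with their own number. Fabp2 alone of the 10 changed sign, to 0.04 and 0.01 without L-RalyKO mouse 1 or 3 and to 0.053 and 0.03 without control mouse 1 or 3 (range over mice left out −0.13 to 0.053). The other 9 kept their direction in every alternative run. Cd36 ranged from −1.79 to −1.49, Pparg from −0.77 to −0.53 and Lpl from 0.74 to 1.21. Apoc1 changed sign with total count scaling (−0.014), without L-RalyKO mouse 2 (−0.02) and without control mouse 3 (−0.064, range over mice left out −0.064 to 0.084). Lipe changed sign with edgeR (−0.0097), DESeq2 (−0.013) and total count scaling (−0.018), without L-RalyKO mouse 2 (−0.05) and without control mouse 3 (−0.18, range over mice left out −0.18 to 0.16). Causes were not tested.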
